A study of Mus musculus and Homo sapiens with 9 samples.

Results

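The globin genes Hba-a1, Hba-a2, Hbb-bs, Hbb-bt, Hba-x and Hbb-y and the globin chaperone gene Ahsp were examined in RNA-seq libraries of mouse splenic CD3+ T cells. These 7 genes were taken by symbol from the 43432 rows of the mouse count table. They were chosen for their difference between the knockout and control libraries, so their values in that comparison are a description and carry no test. In all, 6 of the 7 were found in the table, and Ahsp was not analysed here. The mouse libraries comprised 2 of genotype Irf2bp2 KO and 3 of genotype Wild type, all from CD3+ T cells that were sorted with magnetic beads from the spleen. By the study's account, the knockout animals were Vav-iCre+/-;Irf2bp2 fl/fl and the controls were Vav-iCre-/-;Irf2bp2 fl/fl, so that both carried the floxed allele. Vav-iCre is active throughout the blood-forming lineage, so that red cell precursors as well as T cells lose the gene. The labels give neither the age of the mice nor whether each library came from a separate animal, so that the tests below may measure technical spread. A further 4 libraries came from J.gamma1, a human T-cell leukemia line, with 2 carrying the control hairpin shNC and 2 the hairpin shIRF2BP2.

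Hemoglobin is built from alpha-like and beta-like globin chains, each holding a heme group that binds oxygen. Red cell precursors make the chains in large and nearly balanced amounts, and Ahsp binds alpha chains that have not yet paired with a beta chain. T cells are not known as a source of hemoglobin, and the spleen of the mouse holds red cell precursors as well as lymphocytes. In a bulk library, more cells of a type and more RNA per cell cannot be told apart.

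Hba-a1 and Hba-a2 encode the adult alpha chain, and Hbb-bs and Hbb-bt the adult beta chain. Hba-x and Hbb-y encode the zeta-like and epsilon-like chains of the embryo. The alpha-like genes lie on chromosome 11 of mm10 (Hba-x at chr11:32276400-32278116, Hba-a1 at chr11:32283511-32284465 and Hba-a2 at chr11:32296489-32297298, all on the plus strand). The beta-like genes lie on chromosome 7 (Hbb-bt at chr7:103812524-103813996, Hbb-bs at chr7:103826534-103828096 and Hbb-y at chr7:103851749-103853216, all on the minus strand). The 150 bases before the RefSeq start (GRCm38.p6) are shown for 5 of the genes, because the adult genes varied together across the libraries while the embryonic genes were almost silent. Capitals mark the words CACCC and CCAAT, the TATA-like words ATATAA and ATAAAA, and the GATA words (GATAA or GATAG after an A or a T), each searched on both strands.
Hba-a1, chr11:32283522-32283671, plus strand: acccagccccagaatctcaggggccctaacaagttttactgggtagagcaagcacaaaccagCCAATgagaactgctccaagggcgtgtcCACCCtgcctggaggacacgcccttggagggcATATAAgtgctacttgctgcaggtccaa
Hbb-bs, chr7:103827929-103828078, minus strand: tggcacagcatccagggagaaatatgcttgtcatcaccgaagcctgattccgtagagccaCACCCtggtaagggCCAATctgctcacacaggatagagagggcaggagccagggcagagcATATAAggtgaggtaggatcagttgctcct
Hbb-bt, chr7:103813924-103814073, minus strand: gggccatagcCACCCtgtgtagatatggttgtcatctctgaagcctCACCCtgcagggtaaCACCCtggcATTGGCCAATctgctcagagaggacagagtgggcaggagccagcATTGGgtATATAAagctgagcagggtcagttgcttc
Hba-x, chr11:32276450-32276599, plus strand: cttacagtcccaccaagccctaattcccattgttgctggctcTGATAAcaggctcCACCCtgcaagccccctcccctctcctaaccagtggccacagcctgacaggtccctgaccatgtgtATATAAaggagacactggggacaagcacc
Hbb-y, chr7:103853208-103853357, minus strand: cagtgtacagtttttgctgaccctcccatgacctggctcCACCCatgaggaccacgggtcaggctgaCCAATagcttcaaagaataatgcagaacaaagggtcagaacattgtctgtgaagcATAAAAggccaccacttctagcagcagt
The Hba-a2 window held the same sequence, with 147 of the 150 bases shared and 0 mismatches, and was offset only by where RefSeq places the start. GENCODE M21 holds transcripts that begin further upstream for each of these genes. All 4 adult windows and that of Hbb-y held the word CACCC together with both a CCAAT word and a TATA-like word, a combination found in 0.98% of the windows of 32851 mouse promoters. CACCC alone was found in 37.4% of those promoters, CCAAT in 24.5%, a TATA-like word in 13.9% and a GATA word in 16.0%. Hbb-bt held 3 matches of CACCC and 3 of CCAAT, a pair of the latter adjoining on opposite strands in ATTGGCCAAT, whereas Hbb-bs held 1 match of each. The windows of Hbb-bs and Hbb-bt aligned with 115 identical bases, 29 mismatches and 12 gap positions. Hba-x was the one window without CCAAT and the one with a GATA word, which lay 108 bases before the start. These matches are letters in a window and were not tested as binding sites.

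Depth ranged from 16668577 counts in control library 3 to 37177523 in knockout library 1. Irf2bp2 had 4145, 4594 and 1915 counts in the controls and 0 in both knockout libraries. All 15 T cell marker genes, Cd3e and Trac among them, were detected in every library. After the filter on low counts, 15350 genes were tested with edgeR's quasi-likelihood test, and a gene was called where its p, adjusted by Benjamini-Hochberg, was under 0.05 and its log2 fold change reached 1 in either direction. Levels are in CPM, the count of a gene relative to the size of its library, with library sizes scaled by TMM (trimmed mean of M-values).

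The 4 adult globins were higher in both knockout libraries than in any control, and the controls themselves spread widely. Hba-a1 was at 1067.5 and 1558 CPM in the knockout libraries and at 656.7, 372.4 and 176.9 CPM in control libraries 1, 2 and 3. Hba-a2, its near-identical neighbor, was at 680.4 and 956.4 CPM against 466.1, 242.8 and 120.0 CPM. For both alpha genes knockout library 2 was the highest and control library 3 the lowest, and the groups did not overlap. Hbb-bs was at 1217.7 and 1732.7 CPM in the knockout and at 695.8, 347.6 and 168.2 CPM in the controls. Hbb-bt was at 724.8 and 1069.6 CPM against 350.3, 187.7 and 91.8 CPM. The order of the 5 libraries was thus the same for the 4 genes, with no overlap between the groups for any of them. Of all genes tested, 18.2% also had both knockout libraries above every control, and since these members were chosen on this contrast nothing is read from their 4 of 4.

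**Figure D1:**
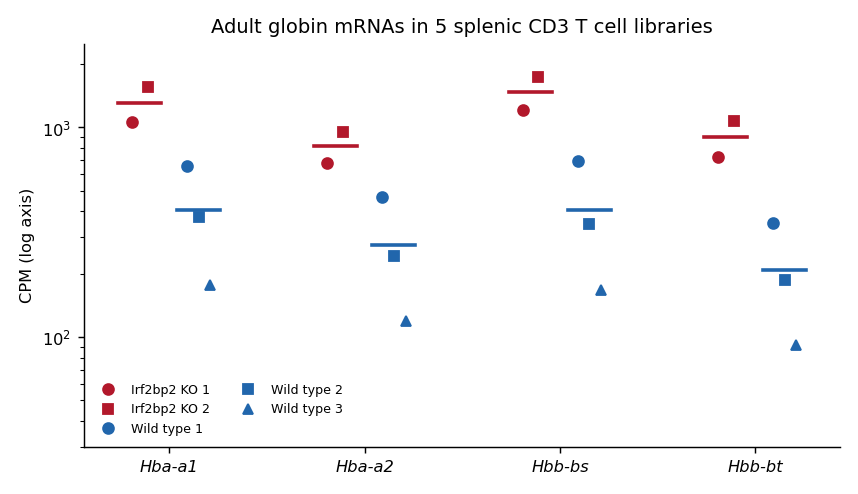
CPM (log axis) of the 4 adult globin genes in each library, with knockout libraries in red, controls in blue and bars at the group means. For each gene both knockout libraries lie above the 3 controls, and the highest control exceeds the lowest by 3.71-fold (Hba-a1) to 4.14-fold (Hbb-bs).

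The mean of Hba-a1 was 1312.8 ± 346.8 CPM in the knockout (SD, n = 2) and 402.0 ± 241.2 CPM in the controls (SD, n = 3), a log2 fold change of 1.71 with a standard error of 0.488. For Hba-a2 the means were 818.4 ± 195.2 and 276.3 ± 175.5 CPM, with a log2 fold change of 1.57 and a standard error of 0.501. The beta genes differed by somewhat more. Hbb-bs had means of 1475.2 ± 364.2 and 403.8 ± 268.3 CPM (log2 fold change 1.87, standard error 0.525). Hbb-bt had means of 897.2 ± 243.8 and 209.9 ± 130.7 CPM (log2 fold change 2.09, standard error 0.501). The lowest knockout library exceeded the highest control by 1.46-fold for Hba-a2 and by 2.07-fold for Hbb-bt, the narrowest and widest gaps of the 4. By edgeR 0 of the 4 adult globins met the call and by DESeq2 1 did, against 2.47% of all genes called higher by edgeR, and 4 had an unadjusted p under 0.05. The selection of these genes on the same contrast leaves nothing to be read from these counts.

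Summed over the 4 genes, adult globin was at 3690.4 and 5316.6 CPM in the knockout libraries and at 2168.8, 1150.4 and 557.0 CPM in the controls. These mRNAs took 0.38% and 0.539% of all counts in the knockout and 0.216%, 0.114% and 0.0534% in the controls. The exact binomial 95% interval was widest relative to its value in control library 3, at 0.0523 to 0.0545%, and such intervals cover counting error only. The differences between libraries were therefore far beyond counting error, and the spread among the controls was of the same order as the difference between the group means, which was 3.49-fold. The log2 fold change of the sum was 1.80, and it lay between 1.44 (without control library 3) and 2.40 (without control library 1). The SD of log2 CPM among the controls was 0.949 to 1.02 for the 4 genes. Among the 2580 genes with a mean of at least 90 CPM in the controls the median of this SD was 0.186, and at least 99.3% of those genes varied less among the controls than each adult globin.

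Per kilobase of transcript the 4 genes kept 1 order in all 5 libraries, with the longest annotated coding transcript taken as the length. This length was 699 bases for Hba-a1 and 554 bases for its near-identical copy Hba-a2, so the order depends on the annotation used. Hbb-bs was the most abundant, at 2349.0 ± 579.9 CPM per kilobase in the knockout (SD, n = 2) and 643.1 ± 427.2 in the controls (SD, n = 3). Hba-a1 followed at 1878.0 ± 496.2 and 575.1 ± 345.1 CPM per kilobase, Hba-a2 at 1477.2 ± 352.3 and 498.7 ± 316.7, and Hbb-bt at 1276.3 ± 346.8 and 298.6 ± 185.9. How reads were shared between copies limits these comparisons: the Hba-a1 and Hba-a2 transcripts aligned with 537 identical bases and 1 mismatch, and 74.5% of all stretches of 100 bases in Hba-a2 occurred unchanged in Hba-a1. Hbb-bs and Hbb-bt aligned with 553 identical bases and 27 mismatches, and 62.6% of such stretches of Hbb-bs were present in Hbb-bt. The sum of the alpha genes and the sum of the beta genes do not depend on how reads were divided within each pair. This holds only if each shared read was counted a single time, and the counting settings are not given.

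The alpha and beta genes were also compared within each library, where the size of the library plays no part. There were 0.9 and 0.897 alpha counts per beta count in the knockout libraries, and 1.07, 1.15 and 1.14 in control libraries 1, 2 and 3. The knockout thus held slightly more beta than alpha counts and the controls slightly more alpha than beta, with means of 0.899 ± 0.00212 (SD, n = 2) and 1.12 ± 0.0436 (SD, n = 3). As a share of all adult globin counts, alpha made up 47.4% and 47.3% in the knockout (exact 95% intervals 47.1 to 47.6% and 47.1 to 47.5%). In the controls it made up 51.8%, 53.5% and 53.3%, with the widest interval, 52.3 to 54.4%, in control library 3. The groups did not overlap, the means lay 5.52 percentage points apart, and the SD was 0.0707 points in the knockout and 0.929 points in the controls. The intervals cover counting error only, and no test was made on these members. Per kilobase of transcript the ratios were 0.926 ± 0.00283 and 1.16 ± 0.0404, with the same direction.

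**Figure D2:**
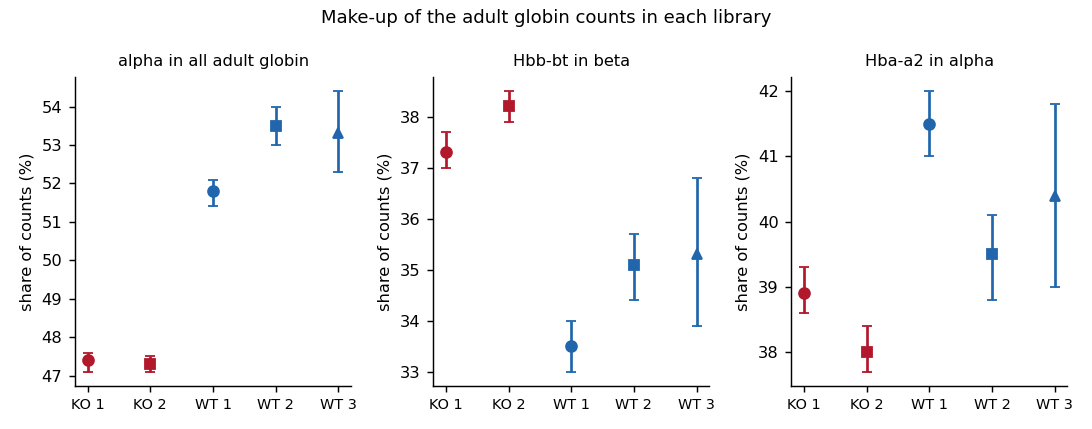
Shares of counts (%) in each library, with exact 95% binomial intervals as bars: both alpha genes in all adult globin (left), Hbb-bt in both beta genes (middle) and Hba-a2 in both alpha genes (right). The axes do not start at 0. The alpha share lies at 47.3 to 47.4% in the knockout (KO) and at 51.8 to 53.5% in the controls (WT).

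Within the beta pair, Hbb-bt took 37.3% and 38.2% of counts in the knockout and 33.5%, 35.1% and 35.3% in the controls. The group means were 37.8 ± 0.636% (SD, n = 2) and 34.6 ± 0.987% (SD, n = 3), without overlap. Within the alpha pair, Hba-a2 took 38.9% and 38.0% in the knockout and 41.5%, 39.5% and 40.4% in the controls, so that the groups lay closer together than for the beta pair. The exact interval of control library 2, 38.8 to 40.1%, overlapped that of knockout library 1, 38.6 to 39.3%. With 2 libraries against 3, and members chosen on this contrast, no test was made on these shares.

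The embryonic genes were close to absent. Hba-x had 10 counts in knockout library 1 and 0 in the other 4 libraries. Hbb-y had 5 counts in knockout library 2 and 0 in the other 4. Each thus rested on a single library and neither passed the filter on low counts, so that no fold is given. A count of 0 allows a level of up to 0.188 CPM in control library 3 and up to 0.0845 CPM in the deeper libraries (limit of 3 counts). Hbq1b, a theta-like globin gene of the alpha cluster, was at 2.04 and 1.97 CPM in the knockout and at 0.351, 0.443 and 0.125 CPM in the controls (log2 fold change 2.62, adjusted p = 0.062 by edgeR's quasi-likelihood test). The neuroglobin gene Ngb was at 0.418 and 0.338 CPM against 0.081, 0.304 and 0.188 CPM (log2 fold change 0.97, adjusted p = 0.61 by the same test). Among the 9 other globin genes found in the table, 2 passed the filter and 5 had a count of 0 in every library. By edgeR 0 of the 2 were called, 1 of them by DESeq2, and 1 had an unadjusted p under 0.05.

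Genes beside the globin clusters were read as well. Within 200000 bases on either side of the alpha cluster, a window chosen after earlier results were known, 8 of 11 genes were tested. By edgeR 0 of these were called, 2 had an unadjusted p under 0.05 (Hbq1b, which lies inside the cluster, and Sh3pxd2b) and 1, Hbq1b, was called by DESeq2. Nprl3, whose introns carry the known enhancers of the alpha-globin genes, had a log2 fold change of 0.20 (standard error 0.158). Mpg, which lies within the span of Nprl3, and Snrnp25 had log2 fold changes of -0.25 and -0.36. Sh3pxd2b was at 1.28, Il9r at 0.80, Rhbdf1 at 0.68 and Ubtd2 at 0.33 on the same scale. Around the beta cluster, where odorant receptor genes dominate, 1 of 36 genes in a window of the same size passed the filter.

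A red cell needs heme, iron, a membrane skeleton and factors that control the globin genes. In all, 6 lists of red cell genes, together with the list of other globin genes, were compared with the adult globins. Of 81 genes tested in these 7 lists, 37 were called higher and 0 lower, which is 45.7%, beside 2.47% of all genes tested called higher and 0.111% called lower. The median log2 fold change over the 81 genes was 1.81, beside 1.79 for the 4 adult globins and -0.02 for all genes tested. The count depended on single libraries, since 3 genes were called without control library 1, 6 without knockout library 2, 12 without knockout library 1 and 48 without control library 2. Without control library 1 these 3 were 2 membrane and skeleton genes and 1 regulator, and 0 genes of the other lists were called. The lists were written with earlier results of these data known.

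**Figure D3:**
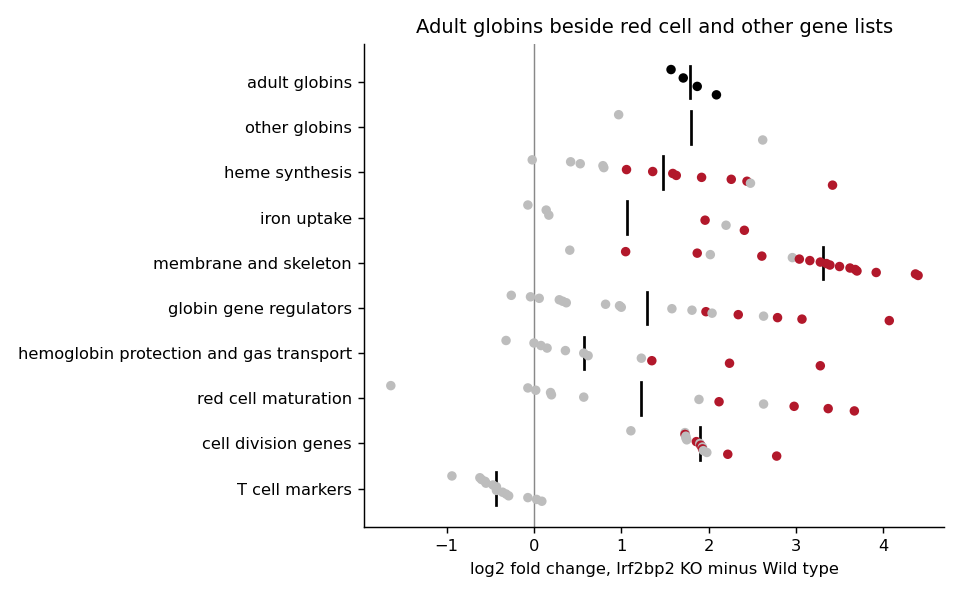
Log2 fold change (knockout minus control) of each tested gene, by list, with the median of each list as a vertical bar. Black points are the adult globins, red points are genes called higher and grey points are genes not called. The globins lie between 1.57 and 2.09, and most genes of the membrane and skeleton list lie to their right.

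The membrane and skeleton genes had the largest differences of the 7 lists by median, with 15 of 18 genes called higher and a median of 3.31. Without control library 1, 2 of them were called, as were 7 without knockout library 1 and 3 without knockout library 2. The erythroid beta-spectrin gene Sptb was at 148.0 and 151.3 CPM in the knockout and at 7.72, 8.19 and 5.13 CPM in the controls, a log2 fold change of 4.40 (adjusted p = 0.0012 by edgeR's quasi-likelihood test). Ank1, the ankyrin that ties spectrin to the membrane, had a log2 fold change of 3.92. Slc4a1, the band 3 anion exchanger, was at 403.0 and 504.3 CPM against 36.7, 54.5 and 14.1 CPM (log2 fold change 3.68, adjusted p = 0.018 by the same test). The groups lay far apart for all of these genes. Epb41, which many cell types use, had the smallest log2 fold change of the list, 0.41.

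Among the heme synthesis genes 8 of 14 were called higher, with a median log2 fold change of 1.48. Abcb10, a mitochondrial transporter of heme-making cells, had the largest log2 fold change at 3.42, and Cpox, a later enzyme of the pathway, had 2.44. Alas2, the first and rate-limiting enzyme of heme synthesis in red cell precursors, was at 65.6 and 91.7 CPM in the knockout and at 23.9, 12.8 and 5.01 CPM in the controls. Its groups did not overlap, but with a log2 fold change of 2.48 and a standard error of 0.54 it did not meet the call (adjusted p = 0.072 by edgeR's quasi-likelihood test). The heme exporter Flvcr1 had a log2 fold change of -0.02. Of the 6 iron genes 2 were called higher: Tfrc, the transferrin receptor, rose by 1.96 and Steap3, a ferrireductase of red cell precursors, by 2.41 on the log2 scale. Tfr2, a second transferrin receptor, had a log2 fold change of 2.2 (adjusted p = 0.057 by the same test), and the ferritin light chain gene Ftl1 one of -0.07.

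Of the 18 genes in the list of globin gene regulators, which holds repressors and a receptor gene as well as activators, 5 were called higher. Gata1, the master factor of red cell development, was at 38.5 and 49.1 CPM against 9.96, 16.3 and 7.07 CPM (log2 fold change 1.97, adjusted p = 0.035 by edgeR's quasi-likelihood test). Klf1, a factor known to bind CACCC words, was at 43.4 and 53.2 CPM against 5.02, 11.8 and 3.82 CPM. Its log2 fold change was 2.79 (adjusted p = 0.029 by the same test), and its binding to the windows above was not tested. Tal1, a partner of Gata1, and Sox6, a repressor of embryonic globin genes, rose by 3.07 and 4.07 on the log2 scale. Bcl11a, the other well-known repressor of embryonic and fetal globin, was at 31.4 CPM in both knockout libraries and at 6.96, 15.1 and 4.50 CPM in the controls (adjusted p = 0.11 by the same test). Epor, the erythropoietin receptor, had a log2 fold change of 2.63 (adjusted p = 0.079 by the same test). Tcf3, which is active in many cell types, had one of -0.04.

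In the remaining lists few genes were called, and 0 in either of them without control library 1. Of 11 genes that protect hemoglobin or serve gas transport, 3 were called higher. These were the carbonic anhydrase gene Car2 (log2 fold change 3.28), the biliverdin reductase gene Blvrb (2.24) and the peroxiredoxin gene Prdx2 (1.35). Bpgm, which makes the 2,3-bisphosphoglycerate that tunes oxygen release, stood at 28.8 ± 2.08 CPM in the knockout (SD, n = 2) and 28.8 ± 8.77 CPM in the controls (SD, n = 3). Of 12 genes of red cell maturation 4 were called higher, among them Hemgn (log2 fold change 3.67), Tspan33 (3.37) and Trim10 (2.98), whereas the autophagy gene Ulk1 had a log2 fold change of 0.02.

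The globins and the other red cell genes differed in how they were distributed over the libraries. Of the 37 red cell genes called higher, 27 had a larger log2 fold change than any adult globin, 6 lay among the adult globins and 4 lay below all of them. The call itself favors large changes, so these counts do not rank the globins among red cell genes. Over all 81 genes tested the median log2 fold change was 1.81, beside 1.79 for the adult globins. Within a library, summed adult globin was 9.16 and 10.5 times the level of Slc4a1 in the knockout and 59.1, 21.1 and 39.6 times that level in control libraries 1, 2 and 3. Relative to Alas2 the ratios were 56.2 and 58.0 in the knockout and 90.9, 89.8 and 111.3 in the controls. For both genes the controls held more globin mRNA per unit of the other transcript, without overlap. Relative to Klf1 the ratio averaged 92.5 ± 10.6 in the knockout (SD, n = 2) and was 432.0, 97.4 and 145.9 in the controls. Relative to Gata1 the ratios were 95.8 and 108.2 against 217.7, 70.7 and 78.8. These last ratios overlapped between the groups, so that no shift against Klf1 or Gata1 was detectable with these libraries.

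**Figure D4:**
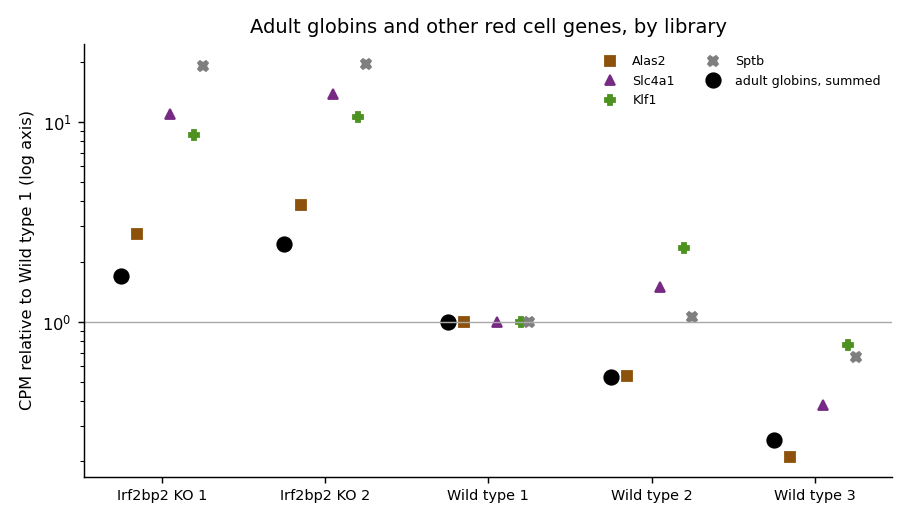
CPM in each library relative to control library 1 (Wild type 1, set to 1, log axis) for summed adult globin (black circles) and 4 other red cell genes. Globin and Alas2 are lower in Wild type 2 than in Wild type 1, whereas Slc4a1, Klf1 and Sptb are higher there.

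The order of the controls also differed. All 4 adult globins were higher in control library 1 than in control library 2, with a median log2 ratio of 0.92. Of the 81 red cell genes 59 were instead higher in control library 2, with a median log2 ratio of -0.33, and this held for 16 of the 18 membrane and skeleton genes and 15 of the 18 regulators. It did not hold for the red cell maturation genes, of which 7 of 12 were higher in control library 1 (median log2 ratio 0.01), and the heme synthesis genes were divided, with 6 higher in control library 1 and 8 in control library 2. The T cell markers (11 of 15) and the cell division genes (15 of 15) were also mostly higher in control library 2. Over all genes tested the libraries were balanced, with 49.6% higher in control library 1. Control library 3 was the lowest control for all 4 globins, for 67.9% of the 81 genes and for 39.2% of all genes tested.

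The 5 genes whose pattern over the 5 libraries was most like that of the adult globins were found by the root mean square difference of centred log2 CPM, among 12759 genes of at least 1 CPM. Among these 5 were the immunoglobulin kappa segment Igkv5-43 (0.204), Lrrn3 (0.214), the lymphocyte receptor gene Klrg1 (0.269) and the mitotic kinase gene Ttk (0.281). For comparison, the 4 globins lay between 0.0519 and 0.136 of their own mean profile. With 5 libraries such likeness is a description only.

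Markers of other cells were read from the same libraries. The T cell markers had a median of -0.43 on the log2 scale and summed levels of 4943.0 and 5266.0 CPM in the knockout against 6462.8 to 7329.9 CPM in the controls. By edgeR 0 of these 15 genes were called, since none reached the fold threshold. Without that threshold 8 had an unadjusted p under 0.05, and 1, Cd8b1, had an adjusted p under 0.05 (log2 fold change -0.94, adjusted p = 0.021 by edgeR's quasi-likelihood test). Of the 15 genes 12 had both knockout libraries below every control, beside 17.8% of all genes tested. Of 15 genes of cell division 6 were called higher, beside 2.47% of all genes tested. All 15 had both knockout libraries above every control, beside 18.2% of all genes tested. The summed levels of the cell division genes were 1061.9 and 1179.1 CPM against 156.6 to 342.6 CPM. Without control library 1 or knockout library 2, 0 of them were called by edgeR, with 14 and 13 at an unadjusted p under 0.05 together with the fold threshold, and DESeq2 on all libraries called 15. The part of these genes in the globin values was not tested.

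Of the plasma cell markers 1 of 7 was called higher, Prdm1, a call lost without knockout library 1 or 2 or control library 1 or 3, and summed levels were 1166.2 and 1535.7 CPM in the knockout and 432.2 to 1178.3 CPM in the controls. Most of this was Jchain, the joining chain of secreted antibodies. It was at 1311.1 and 991.5 CPM in the knockout and at 1029.1, 308.0 and 456.4 CPM in control libraries 1, 2 and 3. Control library 1 was above control library 2, as for the globins. Unlike the globins, Jchain was lowest in control library 2, was higher in knockout library 1 than in knockout library 2, and overlapped between the groups. B cell markers summed to 29.4 and 109.9 CPM against 29.7 to 255.1 CPM, led by Cd79b and Cd79a, and macrophage markers to 247.0 and 346.4 CPM against 129.6 to 640.3 CPM, led by Vcam1 and Hmox1. Neutrophil and granulocyte precursor markers summed to 23.7 and 43.3 CPM against 4.5 to 223.3 CPM, led by Mpo and S100a9, and Ly6g was at 0 in 4 of the 5 libraries. Control library 2 was the highest in each of these 3 lists, and was not the highest control for globin. Megakaryocyte and platelet markers summed to 15.9 and 20.7 CPM against 8.01 to 18.3 CPM, led by Itga2b and Vwf. Stem and progenitor markers, led by Kit and Gata2, summed to 40.3 and 48.1 CPM against 13.0 to 37.6 CPM. NK cell markers, led by Klrd1 and Klrb1c, summed to 52.8 and 83.2 CPM against 81.2 to 147.4 CPM. Dendritic cell markers, led by Itgax and Flt3, summed to 45.8 and 58.6 CPM against 9.45 to 33.4 CPM, and 1 of 6 was called higher, Zbtb46, a call lost without knockout library 1 or 2 or control library 1. By edgeR 0 genes were called in the B cell, neutrophil, macrophage, megakaryocyte, stem cell and NK cell lists, with 0, 2, 0, 2, 2 and 3 genes at an unadjusted p under 0.05, whatever their fold, and 0, 1, 0, 1, 0 and 1 called by DESeq2. The DESeq2 calls in the neutrophil and NK cell lists were lower in the knockout, and that in the megakaryocyte list was higher. The part of any of these cells in the globin values was not tested.

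J.gamma1 cells offered a comparison that played no role in the choice of the genes. IRF2BP2 fell from 202 ± 4.04 CPM with shNC to 86.4 ± 10.5 CPM with shIRF2BP2 (SD, n = 2 each, adjusted p = 0.0023 by edgeR's quasi-likelihood test). In these cells 5.46% of the 15819 genes tested were called higher and 5.01% lower, where a call needed the same adjusted p and a log2 fold change that reached 0.5 in either direction. HBA1, a human adult alpha-globin gene, had 35 and 28 counts with shIRF2BP2 and 3 and 10 with shNC. HBA2, its near-identical copy, had 26 and 25 counts against 4 and 6. Both genes were at levels of about a single CPM or less in every library. HBA2 was called higher (log2 fold change 2.29, standard error 0.585, adjusted p = 0.045 by edgeR's quasi-likelihood test) and HBA1 was not (log2 fold change 2.24, standard error 0.624, adjusted p = 0.058 by the same test). The call of HBA2 was lost whichever library was left out (adjusted p 0.1 to 0.24 by edgeR) and with genes of at least 1 count kept (adjusted p = 0.087 by edgeR). Because reads can be divided between the copies in more than 1 way, their counts were also summed, a choice made after the data were seen.

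The sum was 1.95 ± 0.21 CPM with shIRF2BP2 and 0.393 ± 0.173 CPM with shNC (SD, n = 2 each). Its log2 fold change was 2.28 with a standard error of 0.489 (adjusted p = 0.026 by edgeR's quasi-likelihood test). The call was lost when genes with as little as 1 count were kept in the test (adjusted p = 0.061) and without shIRF2BP2 library 1 (adjusted p = 0.1). HBQ1, a theta-like globin gene, was not called, with 70 and 62 counts against 92 and 106 (log2 fold change -0.63, adjusted p = 0.22 by the same test).

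**Figure D5:**
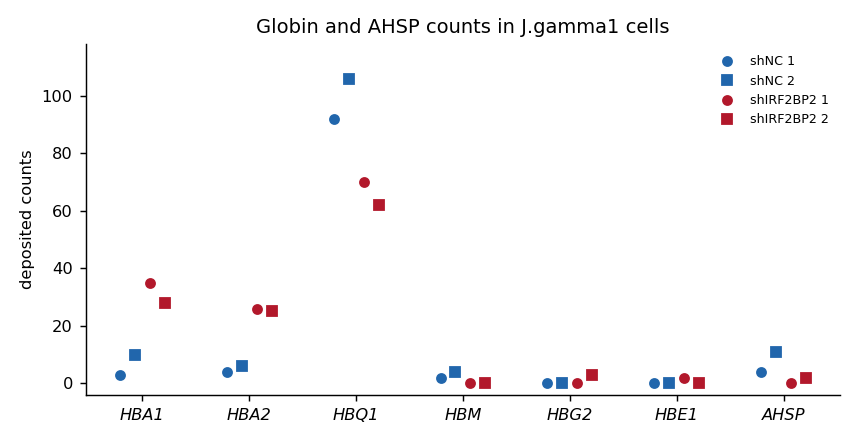
Deposited counts of the 7 human globin and AHSP genes with at least 1 count in J.gamma1 cells, with shNC libraries in blue and shIRF2BP2 libraries in red. HBA1 and HBA2 are at 25 to 35 counts with shIRF2BP2 and at 3 to 10 with shNC, and HBQ1 is at 62 to 70 against 92 to 106.

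The other human genes were at or close to 0. HBB, HBD, HBG1 and the embryonic HBZ had a count of 0 in all 4 libraries, which allows at most 0.116 CPM in the shallowest of them (limit of 3 counts). HBG2 had 3 counts in a single shIRF2BP2 library and HBE1 had 2 counts in the other. HBM, a further alpha-like gene, had 2 and 4 counts with shNC and 0 with shIRF2BP2. AHSP had 4 and 11 counts with shNC and 0 and 2 with shIRF2BP2. These genes did not pass the filter on low counts, and changes in them were not detectable at this depth.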

How the data were processed

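RNA-seq counts of 5 mouse and 4 J.gamma1 libraries were used. The authors aligned the reads with HISAT2 2.2.0, to mm10 and hg38 per the labels, and used StringTie; its counting settings, strand use and annotation release are not given in the sources used here. The deposited values are raw whole-number counts for each library and Ensembl gene, not normalized and not pooled. Rows were named from GENCODE M21 (mouse) and 44 (human), and annotated rows held 97.9 to 99.8% of the counts. Depth ranged from 16668577 to 37177523 counts.

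Genes passing filterByExpr were compared by the quasi-likelihood test of edgeR 4.0.16 (TMM scaling, glmQLFit, glmQLFTest, Benjamini-Hochberg adjustment) in R 4.3.3, per table, with condition as the sole term. Alternatives were DESeq2 1.42.0, other scalings and filters, all rows, the members left out of library sizes, no fold threshold, a replicate block and each library left out. Each library was treated as 1 replicate. Replicates differed beyond sampling noise (chi-square per gene of at least 20 for each pair), which does not show that they came from separate animals or cultures. Intervals are exact binomial (scipy 1.17.1). The scripts were tested on simulated data. Promoter words came from RefSeq windows.

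The members and lists were chosen with earlier results of these data known. Named genes were all members, from each red cell list the 3 with the largest and the 1 with the smallest log2 fold change, 9 known red cell genes, the 5 genes most like the globins, the 2 highest markers of each cell type, and the human globins with any count; Prdm1, Zbtb46, Cd8b1, Ly6g, Cd3e, Trac and the genes beside the clusters were added after their values were seen. A few genes that this rule would name are left out of the text.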

Additional observations from a re-analysis of the deposited data

How the results depend on the processing

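The adult globins were chosen on this contrast, so their direction under the alternatives is a description only. Both knockout libraries lay above every control, so leaving out a library could not change that direction. The log2 fold change of the sum was 1.44 to 2.40 when each library was left out and 1.49 with the replicate block. The median over the 4 genes ranged from 1.42 to 2.38 across left-out libraries. The alpha to beta ratio in the knockout moved from 0.899 to 0.926 per kilobase of transcript and kept its direction against the controls.

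Counts of calls were less stable. In the mouse, 379 genes were called higher and 17 lower, against 735 and 66 with DESeq2 and 407 and 35 with the replicate block. Leaving out each library gave 6 to 532 called higher, 1 to 35 called lower and 3 to 48 red cell genes called higher, the lowest without control library 1. In J.gamma1 cells 1657 genes were called, 715 with genes of at least 1 count in any library kept, and 837 to 2751 with each library left out. For the sum of HBA1 and HBA2 the log2 fold change was 2.25 (adjusted p = 0.061 by edgeR) under that filter and 1.90 to 2.83 with each library left out, where the adjusted p reached 0.1. The causes were not tested.

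Genes near a log2 fold change of 0 changed sign without being called. Bpgm was at 0.00327 with RLE scaling, 0.00138 with upper-quartile scaling, 0.0037 with DESeq2 and 0.0436 with at least 10 counts in every library, Flvcr1 at 0.0297 and Tcf3 at 0.00957 with that filter, and Flvcr1 at 0.0234 with the replicate block. With each library left out the ranges were -0.168 to 0.274 for Bpgm, -0.0865 to 0.0172 for Flvcr1, -0.0969 to 0.0474 for Tcf3, -0.061 to 0.147 for Ulk1 and -0.231 to 0.194 for Ftl1.

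Replicate numbers are shared between groups, but nothing says that they mark a shared animal or day. Same-numbered mouse libraries deviated from their group means with correlations of 0.15 and -0.16 and J.gamma1 libraries with 0.23, so the numbers were not taken as pairs. The block gave 40 red cell genes called higher, against 37, and 2467 genes called in J.gamma1 cells. Among single named genes over all alternatives with an adjusted p, 53 results lost an adjusted p under 0.05 and 22 gained one. The depth of control library 3 limits low genes.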
